A study of Mus musculus with 3 samples.

Results

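Fibroblasts and mural cells, meaning the pericytes and smooth muscle cells of vessel walls, were looked for in 3 single-cell RNA libraries of mouse heart cells that had been sorted as macrophages. Of 10171 barcodes with at least 1000 unique molecular identifiers (UMIs, 1 per captured RNA molecule), at least 200 genes and at most 10% mitochondrial UMIs, 95 were fibroblasts and 26 were mural cells by fixed marker genes. Both classes were taken from the barcodes in which the macrophage complement genes C1qa, C1qb and C1qc together held under 0.3% of UMIs. A fibroblast had UMIs of at least 3 of the 6 genes Col1a1, Col1a2, Col3a1, Dcn, Pdgfra and Lum. A mural cell had at least 3 of the 5 genes Rgs5, Kcnj8, Pdgfrb, Vtn and Notch3 and was not a fibroblast. The members were thus chosen by the measured UMIs of these genes, whose levels are given as a description.

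The hearts were from wild-type animals, 32 to 34 weeks old, kept on control diet (CD), high fat diet (HFD) or Western diet (WD), with 1 library for each diet. Hearts were flushed and digested with collagenase II, and live single cells positive for CD45, CD11b and F4/80 were sorted before 10x Genomics 3′ library preparation. The genes of these sort markers are Ptprc, Itgam and Adgre1. The sources used here do not give the number of mice pooled, their sex, the diet composition or the time on diet. No test between diets was possible, as each diet had 1 library, and every interval below is an exact 95% interval that covers counting error only.

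Cardiac fibroblasts build and turn over the collagen and proteoglycan matrix between heart muscle cells. In response to injury they can switch on matrix genes such as periostin (Postn), and a population around vessels is known for Pi16 and Cd34. Pericytes sit on capillaries and arteriolar smooth muscle cells ring larger vessels, where actin, myosin and their regulators set vessel tone. Neither type is known to make CD45, the pan-leukocyte surface protein used in the sort.

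Library totals were 17464149 UMIs in CD, 16630481 in HFD and 79269380 in WD. Median UMIs per fibroblast were 3574 in CD (1088 to 10987), 2400.5 in HFD (1289 to 5822) and 13978 in WD (7404 to 35417), so the WD cells were read far more deeply. The file headers name version 3.0.1 of the counting software for the CD and HFD libraries and 7.2.0 for the WD library. The CD and HFD files list 255093 and 249950 barcodes of at most 50 UMIs, whereas the smallest barcode listed in WD had 504. No member's barcode occurred in a second library, although 15 barcodes past the filters were shared by CD and HFD and 1 by CD and WD. The software version, depth and diet of the WD library cannot be told apart.

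The fibroblast label held in CD. All 44 CD members had Dcn, the proteoglycan decorin, and Gsn, the actin-severing protein gelsolin that lay outside the rule. The 6 rule genes made up between 1.40% and 6.16% of a CD cell's UMIs, with a median of 2.56%. In HFD, 10 of 12 members had both Dcn and Gsn. One of the other 2, with 5296 UMIs, had 60 UMIs of Dcn but 0 of Gsn and Col3a1. It also had 16 of the endothelial gene Emcn and 4 of the 6 endothelial marker genes. Its 30 UMIs of Cytl1 did not set it apart. Cytl1 was also found in 4 CD members and, at 65 UMIs, in an HFD member with both Dcn and Gsn. The last, with 2003 UMIs, had 0 of Dcn, 10 of Gsn, 11 of Postn and 7 of Cnp, a gene known from myelinating glia. In WD, 36 of 39 members carried all 6 rule genes, and in these the rule genes made up 1.07% to 3.33% of UMIs. The other 3 had only 0.141%, 0.0284% and 0.0810% of their UMIs in the rule genes and each had 7 to 13 UMIs of Ptprc. These 3 barcodes carry the fibroblast label by the rule but hold leukocyte RNA. In all, 6 WD members and no CD or HFD member had at least 3 of 6 leukocyte genes. Among these 6 was a cell with 33199 UMIs, all 6 rule genes and 15 UMIs of Ptprc. It was the only fibroblast in the 3 libraries that a doublet score removed. Where leaving out the 2 atypical HFD cells or these 6 WD cells changed a value named below by much, the value without them stands beside it. For the collagen genes of the rule, the UMIs held by such WD cells are given instead.

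Members near the threshold were few in CD. Exactly 3 rule genes were found in 2 CD, 2 HFD and 1 WD fibroblasts, while 0, 5 and 14 low-C1q barcodes had exactly 2. For mural cells the threshold cut closer: 21 of the 25 HFD members had exactly 3 rule genes and 4 had 4, with 18 further HFD barcodes at 2. A total of 4, 3 and 22 barcodes in CD, HFD and WD had at least 3 fibroblast genes but were set aside for their C1q content. For at least 3 mural genes these numbers were 2, 0 and 0.

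Fibroblasts made up 1.64% (1.2 to 2.2) of the filtered barcodes in CD, 0.442% (0.228 to 0.770) in HFD and 0.817% (0.581 to 1.11) in WD. Mural cells were 0 of 2679 in CD, where a count of 0 allows up to 3 cells, a share of 0.112% (exact upper limit 0.138%), 25 of 2717 in HFD (0.920%, 0.596 to 1.36) and 1 of 4775 in WD (0.0209%, 0.000530 to 0.117). Among low-C1q barcodes alone the fibroblast shares were 11.4%, 1.68% and 3.69% in that order. The HFD share was the lowest for fibroblasts and the highest for mural cells, and the CD and HFD intervals did not overlap for either class. These are shares of what passed a sort for macrophages, so they give no abundance in the heart. Of endothelial cells, another type outside the gate, CD had 190, HFD had 433 and WD had 0. When every barcode was thinned to 1000 UMIs before the rule was applied, 43, 10 and 31 fibroblasts and 0, 5 and 0 mural cells were left. The mural count moved with the mitochondrial limit and with the number of rule genes asked for. HFD mural cells had a median of 8.03% mitochondrial UMIs (3.26 to 9.89), and their number was 3 at a limit of 5% and 34 at 20%, and 42 with at least 2 rule genes and 4 with at least 4. The CD count of mural cells was 0 at both limits.

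**Figure D1:**
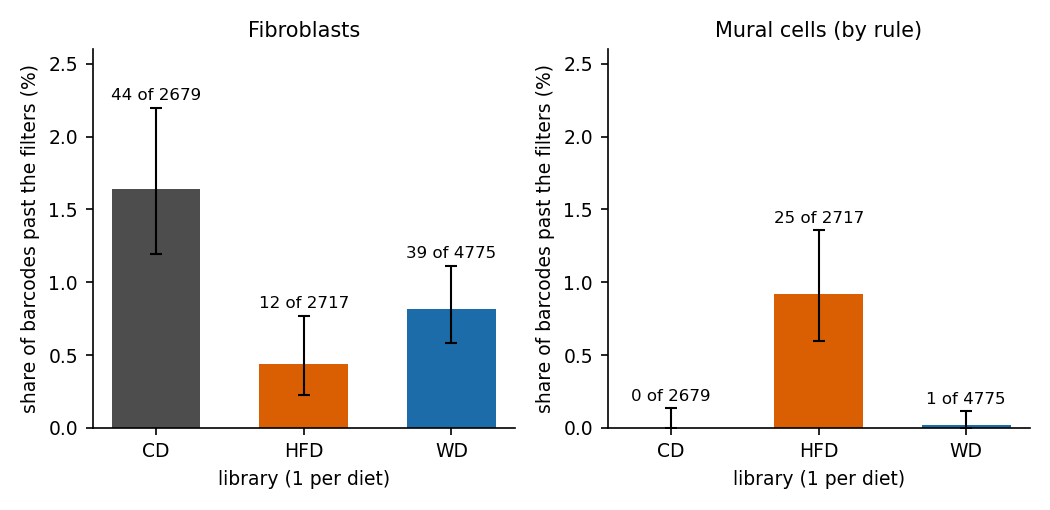
Share of barcodes past the filters (percent) that were fibroblasts or mural cells in the CD, HFD and WD libraries, 1 library per diet, with bars for the share and lines for exact 95% binomial intervals. Fibroblasts range from 0.442% in HFD to 1.64% in CD, and mural cells reach 0.920% in HFD against 0 in CD and 0.0209% in WD.

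The sort-gate genes were nearly silent in the CD and HFD members. Ptprc, Itgam and Adgre1 summed to 17.9 CPM (UMIs of a gene per 1000000 UMIs of the class) in CD fibroblasts, 28.3 in HFD fibroblasts and 15.8 in HFD mural cells, against 737 and 729 in the C1q-positive barcodes of CD and HFD. None of the 3 genes was detected in 42 of 44 CD fibroblasts, 11 of 12 HFD fibroblasts and 23 of 25 HFD mural cells. WD fibroblasts were at 115 CPM, and 27 of 39 had none, in a library whose C1q-positive barcodes reached 1372 CPM. Without the 6 WD cells with leukocyte genes the value was 14.6 CPM. Those cells were picked by a list that holds Ptprc, so a lower value follows from the choice. The list of macrophage genes summed to 495, 907 and 805 CPM in CD, HFD and WD fibroblasts, against 43372, 49409 and 21967 in C1q-positive barcodes, and the WD value was 372 CPM without those 6 cells. Cardiomyocyte genes summed to 125, 28.3 and 94.4 CPM in the same fibroblasts. Xist, the transcript of the inactive X chromosome, was at 0 in all members, and the Y-linked Ddx3y had 9, 3 and 62 UMIs in CD, HFD and WD fibroblasts.

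Decorin and gelsolin set the common profile of the fibroblasts. Dcn had 68.8 to 489 UMIs per 10000 in CD cells with a median of 167, 0 to 593 with a median of 232 in HFD, and 0.95 to 279 with a median of 128 in WD. The 3 ranges overlapped, and summed Dcn was 18897, 25932 and 12879 CPM. Gsn ran from 66.3 to 971 per 10000 in CD with a median of 352, from 0 to 996 with a median of 258 in HFD and from 0 to 348 with a median of 152 in WD. Most WD cells thus lay in the lower part of the CD range of Gsn. In C1q-positive barcodes Dcn was only 16.9, 42.1 and 17.4 CPM, and Gsn 191, 178 and 75.2. In the near-empty barcodes, which hold free RNA, Dcn was 59.6 CPM in CD and 59.1 in HFD.

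The collagen genes of the rule had similar levels in CD and HFD. With all 39 WD members their shift in WD was near that of all genes, a median log2 ratio of 0.37. Much of their WD signal came from the cells with 33199 and 29436 UMIs, both among the 6 with leukocyte genes. These held 216 and 269 UMIs of Col3a1, 88 and 128 of Col1a1, and 93 and 162 of Col1a2. No other WD fibroblast had more than 89 UMIs of Col3a1. Col3a1, a chain of the fibrils of elastic tissues, was at 2187 CPM (1969 to 2423) in CD, 1757 (1347 to 2253) in HFD and 2724 (2591 to 2861) in WD. Col1a1, the main chain of type I collagen, was at 977, 822 and 1373 CPM, and its partner Col1a2 at 1198, 879 and 1606. Lum, a proteoglycan that spaces collagen fibrils, was at 2723, 2607 and 946 CPM, and per cell its median was 28.5 UMIs per 10000 in CD and 5.81 in WD. Pdgfra, the receptor that marks cardiac fibroblasts, was sparse: it had UMIs in 20 of 44 CD, 1 of 12 HFD and 36 of 39 WD cells, at 185 (126 to 262), 28.3 (0.718 to 158) and 474 (419 to 533) CPM. After thinning to 1000 UMIs per cell the shares with Pdgfra were 27.3%, 0% and 35.9%, against 0.131%, 0.2% and 0.673% unthinned in C1q-positive barcodes. Other fibroblast genes outside the rule were present in all 3 libraries. The matrix proteins Dpt (1085, 1049 and 1210 CPM) and Bgn (2533, 1956 and 1526 CPM), the epicardial-lineage transcription factor Tcf21 (334, 227 and 233 CPM) and the gelatinase Mmp2 (673, 510 and 355 CPM) were among them.

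**Figure D2:**
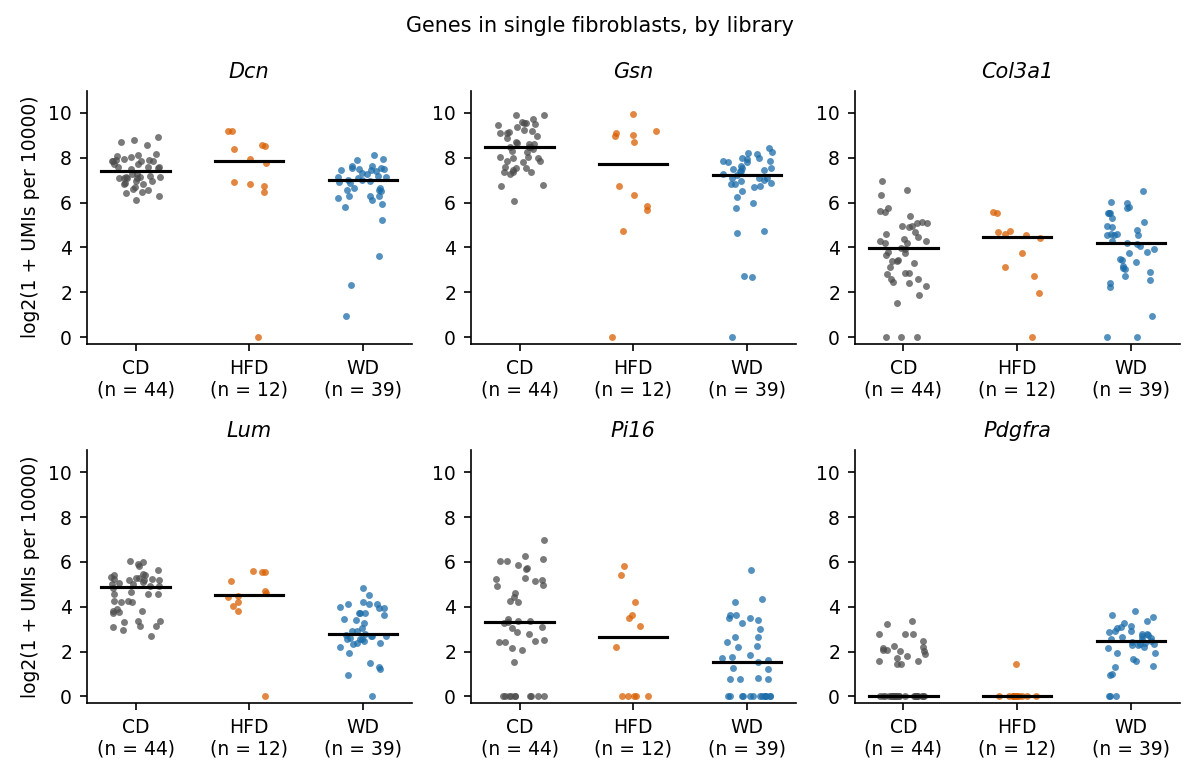
Expression of single genes in each fibroblast as log2(1 + UMIs per 10000), 1 point per cell, for CD (44 cells), HFD (12) and WD (39), with a line at the median. Dcn and Gsn are high in most cells of each library, with 1 HFD cell at 0 for each, 1 WD cell at 0 for Gsn and 3 WD cells low in Dcn. Pi16 and Pdgfra are absent from many cells.

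Within the fibroblasts, Pi16, a peptidase inhibitor known from adventitial fibroblasts, was detected in only part of the cells. It was found in 34 of 44 CD cells, 7 of 12 HFD cells and 26 of 39 WD cells, with highest values of 125, 55.0 and 48.7 UMIs per 10000. Most CD cells without it had fewer UMIs than the CD median of 3574, whereas the deepest WD cell, with 35417 UMIs, also had none. The part of depth in its absence was not tested. Summed Pi16 was 2354, 1786 and 487 CPM in these libraries, and after thinning 50%, 50% and 25.6% of their cells had it. Cd34, also known from such cells, was at 1013, 850 and 451 CPM, and Mfap5, a microfibril protein, at 2181, 1757 and 836. Postn was restricted to fewer cells, 8 in CD, 5 in HFD and 6 in WD. Of these, 7 CD, 2 HFD and 6 WD cells also had Pi16, and 4, 2 and 3 also had Cilp, a matrix protein known from activated cardiac fibroblasts. The complement gene C3, whose product is the central protein of the cascade, was a further part of the profile, at 763, 737 and 1116 CPM.

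The comparison of HFD with CD fibroblasts rested on 12 HFD cells with 35284 UMIs in all, which limited the genes that could be tested. Of 1628 genes with at least 20 UMIs over both sides, 7.25% stood higher in HFD by 2-fold or more and 10.4% lower by as much, which is the meaning of higher and lower for all counts below. The interval excluded 1 for 70 of the 118 higher and 38 of the 170 lower genes. The median log2 ratio over all these genes was -0.00. The immediate early and stress list holds genes of transcription factors and RNA regulators induced within minutes of a stimulus. It also holds heat shock protein and metallothionein genes. The genes of this list were mostly on the low side: 7 of 15 were lower and 1 was higher, with a median of -0.92. Fos was at 113 CPM in HFD (3 of 12 cells) and 733 in CD (26 of 44 cells), 6.47-fold lower (2.46 to 24.1). Egr1 was absent from all 12 HFD cells and at 465 CPM in 30 CD cells, at least 5.47-fold lower against the level of 3 UMIs over the HFD cells. Jun was at 312 and 793 CPM, 2.54-fold lower (1.38 to 5.22). The same list had a median of -1.08 between the C1q-positive barcodes of the 2 libraries, so the lower level was shared by cells of another type. Without the 2 atypical HFD cells the list still had 7 of 15 lower, with a median of -0.97.

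The matrix lists below differed between HFD and CD in few genes beyond counting error. Of 13 genes for fibrillar collagens and their assembly, 1 was higher and 1 lower, with a median of -0.01. The interval excluded 1 only for the higher gene. Of 9 basement membrane genes, which code for the sheet under epithelia and vessels, none was higher and 4 were lower. The interval excluded 1 for only 1 of these 4. The list median was -0.77, and -0.44 without the 2 atypical cells. Of 22 proteoglycan and glycoprotein genes of the matrix, none was higher and 5 were lower, with a median of -0.44. The interval excluded 1 for only 1 of these 5, and 3 were lower without the 2 atypical cells. Postn was 3.88-fold higher (2.33 to 6.40) in HFD, at 879 CPM against 226. In CD, however, 63.2% of its UMIs came from 1 cell, and after thinning it was found in 41.7% of HFD and 2.27% of CD cells. The atypical HFD cell without Dcn held 35.5% of the HFD UMIs of Postn, and its log2 ratio was 1.96 with and 1.58 without the 2 atypical cells. Postn was also higher in HFD among C1q-positive barcodes, by 4.83 on the log2 scale, but this ratio rested on very few barcodes. In that class 1996 of 2002 HFD and 2289 of 2293 CD barcodes had no UMI of Postn. Sparc, a collagen-binding matricellular protein found in all 12 HFD cells, was 2.05-fold higher (1.69 to 2.47), and its log2 ratio was 1.04 with and 0.63 without the 2 atypical cells. The endoplasmic reticulum folding proteins Manf (624 against 209 CPM) and Pdia6 (765 against 298 CPM) were 2.99-fold (1.67 to 5.24) and 2.57-fold (1.55 to 4.18) higher. Anxa1, an anti-inflammatory annexin, was 2.35-fold higher (1.61 to 3.4) in HFD, at 1275 against 542 CPM.

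Lower in HFD were Mfap4, a fibre-associated matrix protein, at 227 against 1353 CPM and 5.97-fold lower (2.98 to 14), and Cygb, the cytoglobin of fibroblasts, at 368 against 1114 CPM and 3.02-fold lower (1.73 to 5.79). After thinning the log2 ratio of Cygb was -0.62. Cxcl12, the ligand that retains leukocytes and progenitors, had 1 UMI in HFD and 42 in CD, a ratio of 8.83 with an interval from 1.5 to 357. Lrp1, a scavenging and lipoprotein receptor, was at 113 against 387 CPM, 3.42-fold lower (1.27 to 12.9). Of 7 lipid-handling genes, 3 were lower and none higher, with a median of -0.94. Of 13 interferon and antigen presentation genes 1 was higher and 1 lower, with a median of 0.48. Several of the largest ratios came from single cells. Timp1, a protease inhibitor, was 18.7-fold lower (3.27 to 747), with 73.0% of its CD UMIs in 1 cell. Tm4sf1 was higher by 2.39 on the log2 scale with 88% of its HFD UMIs in 1 cell, and its ratio was -0.33 without the 2 atypical cells.

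WD fibroblasts differed from CD fibroblasts across a large share of genes. Of 5858 genes tested, 36.7% (2150) were higher in WD and 14.6% (856) lower, with a median log2 ratio of 0.37. With the median ratio set to 1 the split was 1698 higher and 1479 lower. The ratio ran with the intron length of genes. Genes were split by total intron length into 3 groups of equal size, and the medians were -0.63 in the short-intron group, 0.25 in the middle group and 1.66 in the long-intron group. The same gradient was present between the C1q-positive barcodes of the 2 libraries, with medians of -0.86, 0.33 and 2.0. Between HFD and CD fibroblasts, whose libraries share the software version, the 3 medians were -0.07, 0.08 and -0.01. The part of software version, intron-derived reads or depth in the WD ratios was not tested. The lists below are therefore set beside their intron groups.

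**Figure D3:**
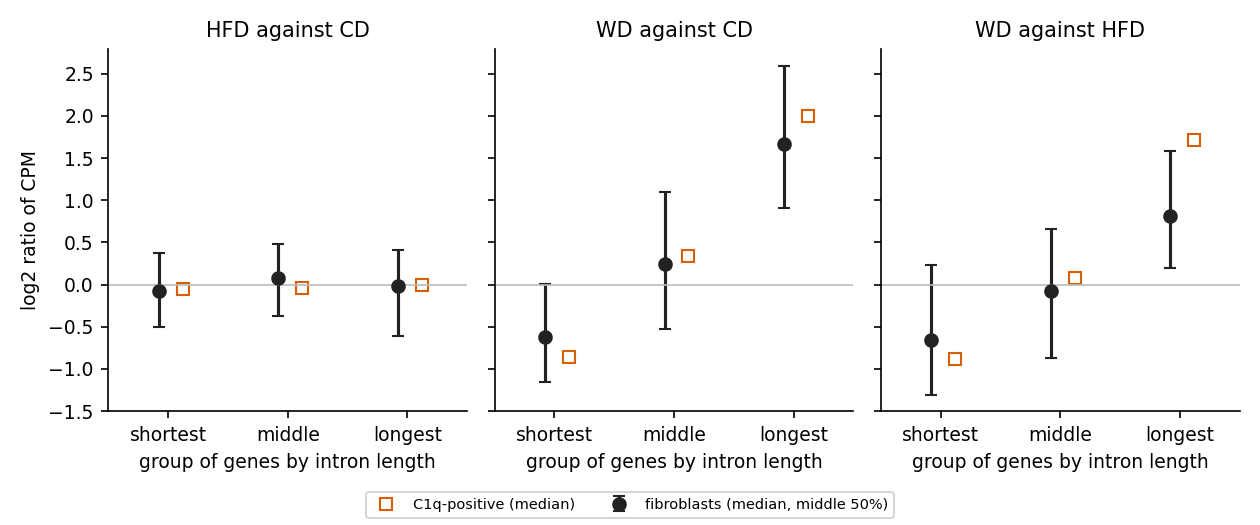
Log2 ratio of CPM between fibroblasts of 2 libraries for genes in 3 groups by total intron length, with medians and the middle 50% of genes, beside medians in C1q-positive barcodes. WD against CD climbs from -0.63 in the shortest group to 1.66 in the longest, while HFD against CD stays between -0.07 and 0.08.

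Immediate early and stress genes ran against that gradient. They are mostly short genes, 19 of 22 in the short-intron group, such as Fos on chromosome 12 (85473890 to 85477273, plus strand, GRCm38) with 1032 bases of intron. In WD 16 of 22 were higher than in CD and none lower, with a median of 1.67. Of the 19 short ones 14 were higher, against 9.73% of all genes of that group. With the median ratio of all genes set to 1, 13 of 22 were still higher, and 11 of 16 after thinning. Fos was at 2964 CPM in WD (37 of 39 cells) against 733 in CD, 4.04-fold higher (3.37 to 4.90). Egr1 was 3.32-fold higher (2.63 to 4.23) at 1541 CPM. Zfp36, which speeds the decay of cytokine messages, was 16.1-fold higher (9.36 to 30.4) at 1248 against 77.5 CPM, and Fosb was 8.66-fold higher (5.91 to 13.2) at 1394 against 161 CPM. The cytokine signalling brake Socs3 was 8.77-fold higher (4.84 to 17.7), with a log2 ratio of 3.13 that was 1.3 after thinning. The C1q-positive barcodes again moved the same way, with a median of 1.40. Per fibroblast, the list summed to medians of 64.4, 41.1 and 164 UMIs per 10000 in CD, HFD and WD. Against HFD, 17 of 22 were higher in WD, where the background was 22.9% higher and 20% lower of 4311 genes, and the median was 2.5. These comparisons share libraries and are not independent of each other.

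Basement membrane and receptor genes were higher in WD, along the intron gradient. Of 14 basement membrane genes 10 were higher and none lower, with a median of 1.46 against 0.52 in C1q-positive barcodes. Of these 14, 13 lay in the long-intron group, where 72.6% of all genes were higher. Setting the median ratio to 1 left 8 of the 14 higher. Lama2, the laminin chain around muscle and fibroblasts, spans 26980036 to 27619758 on chromosome 10 (minus strand, GRCm38) with 623385 bases of intron. It was at 1315 CPM in WD (36 cells) and 125 in CD (15 cells), 10.5-fold higher (6.82 to 17.1). Col4a1, a chain of the type IV collagen network, was 3.85-fold higher (2.86 to 5.29) at 1078 against 280 CPM, and the laminin linker Nid1 2.84-fold higher (2.12 to 3.88) at 846 against 298 CPM. Of 18 growth factor and hormone receptors 12 were higher and none lower, with a median of 1.40 against 1.41 in C1q-positive barcodes. The long-intron group held 8 of the 18, and 7 of these were higher. Setting the median ratio to 1 left 9 higher and 1 lower. Egfr, the epidermal growth factor receptor, had 299 UMIs in 35 WD cells and 3 UMIs in CD, a ratio of 28.7 with an interval from 9.73 to 140. Tgfbr3, a co-receptor for TGF-beta, was 7.07-fold higher (4.07 to 13.4), and Pdgfra 2.56-fold (1.77 to 3.85). Of 19 fibrillar collagen genes, 5 were higher, a share below that of all genes, 1 was lower and the median was 0.42. They spread over the short, middle and long groups as 6, 7 and 6. After such scaling 3 were higher and 3 lower. Col5a1 and Col5a2, which set fibril diameter, were 3.4-fold (2.12 to 5.75) and 3.72-fold (2.48 to 5.84) higher. Among genes with at least 50 UMIs found in at least 20% of WD cells the largest ratio belonged to Gm42418, which was 145-fold higher (89.3 to 254) in fibroblasts and higher by 7.27 on the log2 scale in C1q-positive barcodes. Zbtb16, a zinc finger factor, had 444 UMIs in WD and 1 in CD, a ratio of 128 with an interval from 22.8 to 5062.

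Adventitial genes were lower in WD. Of 11, 6 were lower and 1 higher, with a median of -1.04 against -0.02 in C1q-positive barcodes. Pi16 was at trace level in the latter, with no UMI in 2254 of 2293 CD and 3581 of 3717 WD barcodes. With the median ratio set to 1, 7 of 11 were lower. Of the 7 adventitial genes in the short-intron group 3 were lower, where 31.4% of that group was lower. Pi16 was 4.83-fold lower (4.14 to 5.64) and Mfap5 2.61-fold lower (2.27 to 2.99). Ly6a, the stem cell antigen Sca-1, was at 529 against 1091 CPM, 2.06-fold lower (1.71 to 2.49). Against HFD, 3 of 7 were lower and none higher, with a median of -0.91. The C1q-positive barcodes of WD and HFD also had a lower median for this list, -1.20 over 6 genes. The short-intron group held 5 of the 7, with 2 lower, where 36.3% of all its genes were lower. Without the 6 WD cells with leukocyte genes, 5 of 11 were lower against CD. Outside that list, Gsn was 2.69-fold lower (2.6 to 2.78), Lum 2.88-fold (2.54 to 3.27), Mfap4 7.65-fold (6.04 to 9.76) and Pcolce, which helps to process procollagen, 3.12-fold (2.58 to 3.76). Gsn was lower by a similar amount in C1q-positive barcodes, at -1.34 on the log2 scale, and Pcolce and Lum were also lower there, at -2.67 and -0.65. Lum was at trace level in that class, with no UMI in 2275 of 2293 CD and 3663 of 3717 WD barcodes.

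Interferon and antigen presentation genes were lower in WD about as often as other genes of their intron group, and the ratios of class II genes depended on 6 cells. Of 14 such genes 2 were higher and 5 lower than in CD, with a median of -0.54 against -0.92 in C1q-positive barcodes. The short-intron group held 13 of the 14, with 5 lower, near the 31.4% of all its genes that were lower. B2m, the light chain of class I molecules, was at 678 against 1889 CPM, 2.79-fold lower (2.40 to 3.24), and the heavy chain H2-D1 at 561 against 1174 CPM, 2.09-fold lower (1.74 to 2.5). The class II genes Cd74 and H2-Aa were higher by 1.77 and 1.22 on the log2 scale. Without the 6 WD cells with leukocyte genes their ratios were -0.66 and -0.21, and none of the 14 genes was higher. Complement C7, a terminal pathway component, had 114 UMIs in 16 WD cells and 1 in CD, a ratio of 32.8 with an interval from 5.78 to 1308. C4b was 6.91-fold higher (3.10 to 19.2), with 83.3% of its WD UMIs in 1 cell. Of 19 lipid-handling genes 8 were higher and 4 lower, with a median of 0.57, and 5 and 5 with the median ratio set to 1. They lay as 8, 5 and 6 in the short, middle and long groups.

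**Figure D4:**
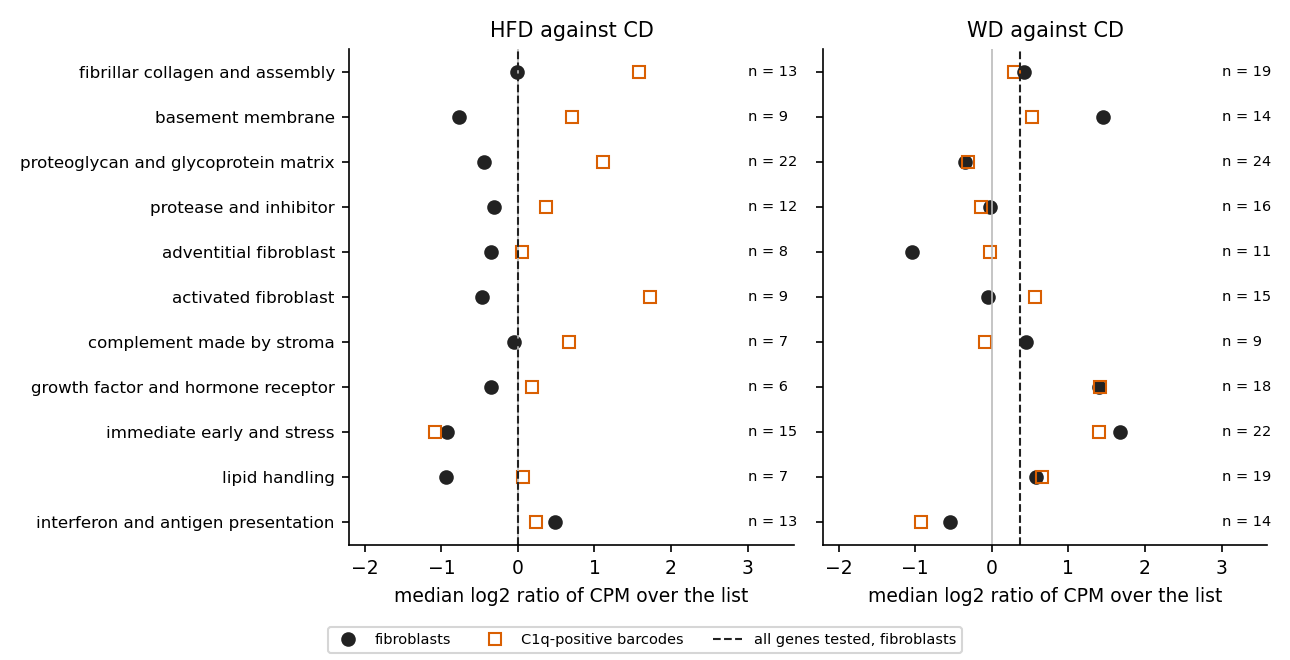
Median log2 ratio of CPM over each gene list for fibroblasts and for C1q-positive barcodes of the same libraries, in the HFD and WD comparisons, with a line at the median of all genes tested. Immediate early and stress genes have medians of -0.92 in HFD against CD and 1.67 in WD against CD. Adventitial genes are at -1.04 in WD against CD, where C1q-positive barcodes, few of which hold Pi16, are at -0.02.

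Most of the 25 HFD mural cells carried contractile genes of smooth muscle, with 20 of them holding Acta2, Tagln and Myh11 together and 2 holding none of these. Among their rule genes, Rgs5, a regulator of G-protein signalling in vessel walls, had UMIs in 24 cells, from 1 to 72 with a median of 17.5 where present, and summed to 4191 CPM against 169 in HFD endothelial cells and 8.49 in C1q-positive barcodes. Pdgfrb, the receptor that recruits mural cells to endothelium, was in 24 cells and Notch3, the arterial mural Notch receptor, in 21. Kcnj8, the pore of the vascular ATP-sensitive potassium channel, was in 3 cells and Vtn in 7. The combination of Rgs5, Pdgfrb and Notch3 was found in 19 cells. Rgs5 in near-empty barcodes was at 67.7 CPM in HFD and 17.4 in CD, and Acta2 at 259 and 19.2 CPM, so the free RNA of HFD also held more of these transcripts.

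Acta2, the smooth muscle actin on chromosome 19 (34241090 to 34255590, minus strand, GRCm38), lay outside the rule and was found in 23 of 25 mural cells, with 8 to 204 UMIs and a median of 46 per cell. It summed to 11798 CPM (11208 to 12412), against 478 in HFD endothelial cells and 17.4 in C1q-positive barcodes. Tagln, an actin-binding protein, was in 23 cells at 4964 CPM, with 5 to 87 UMIs, and the myosin light chain Myl9 in 24 cells at 4475 CPM. Myh11, the smooth muscle myosin heavy chain, was in 20 cells with 2 to 20 UMIs at 1113 CPM. Regulators of calcium and tone were present too. Pln, the brake on the calcium pump of the sarcoplasmic reticulum, was at 702 CPM in 21 cells, Mylk, the kinase that starts contraction, at 1168 CPM and the nitric oxide receptor subunit Gucy1a1 at 450 CPM.

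The 3 cells with Kcnj8 also held Vtn, at 8, 8 and 4 UMIs. With 5.97% of the UMIs of the class, they carried 76.9% of its Vtn UMIs and 2.21% of its Acta2 UMIs. Kcnj8, Vtn and Notch3 were used to choose the cells, so this is a description. Notch3 was at 0 in all 3. The first, with 3984 UMIs, had 41 UMIs of Rgs5, 33 of Acta2, 20 of Tagln and 0 of Myh11, and its Acta2 lay within the range of the other cells. The second, with 2309 UMIs, had 27 of Rgs5, 0 of the 3 contractile genes and the only 2 UMIs of Abcc9, the channel's regulatory subunit, among the HFD mural cells. The third, with 1279 UMIs, had 15 of Rgs5 and 0 of Acta2, Tagln, Myh11. These genes were inspected after the values were seen, and 3 cells allow no comparison between diets.

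**Figure D5:**
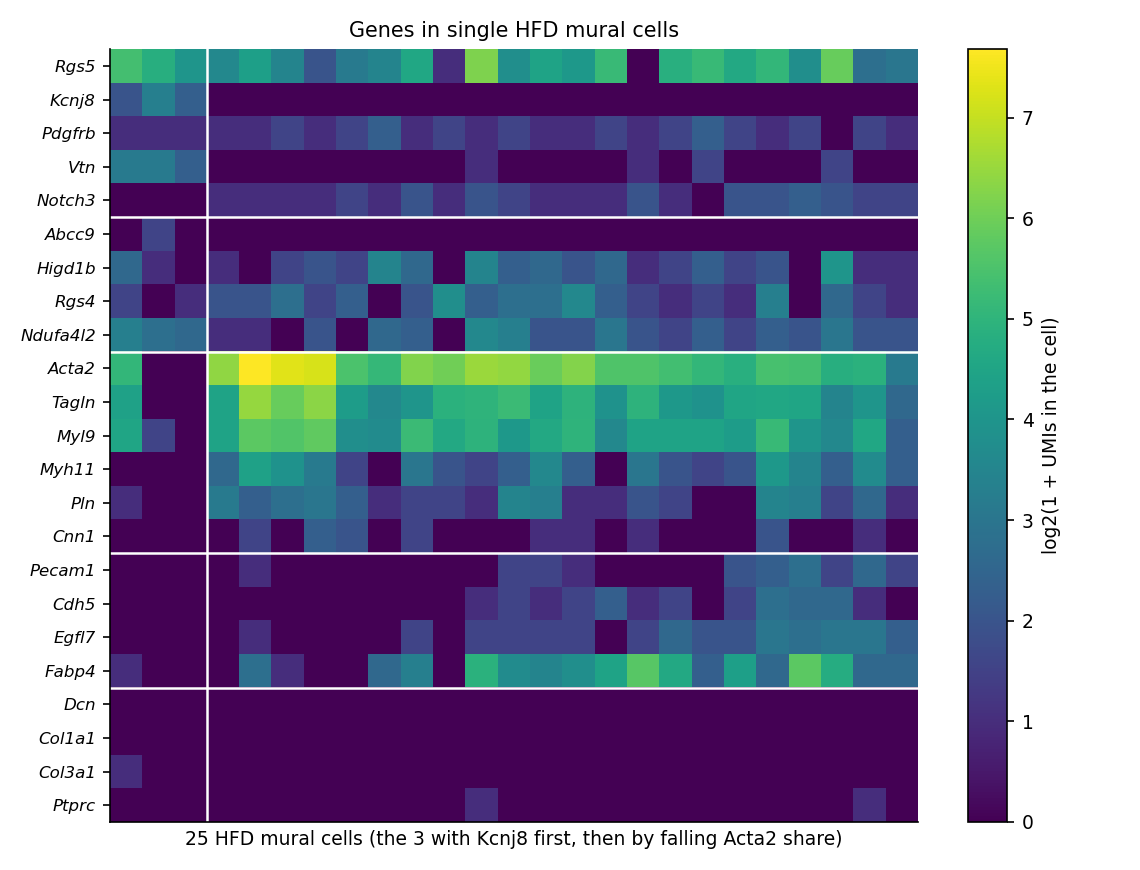
UMIs of marker genes in each of the 25 HFD mural cells as log2(1 + UMIs), 1 column per cell, with the 3 cells that have Kcnj8 first and the others by falling Acta2 share. Acta2, Tagln and Myl9 fill nearly all columns, whereas the first 3 columns hold most of the Vtn signal and 2 of them have no Acta2.

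Set beside the 12 fibroblasts of the same library, the mural cells were separated by the genes that chose both classes and by others. The rule used these cells, so the values are a description: of 1383 genes 24.2% were higher and 14.6% lower in mural cells. Of 14 smooth muscle genes 12 were tested and 12 were higher, and of 15 other pericyte genes 7 were tested and 7 were higher. Mural cells held 126713 UMIs against 35284 in fibroblasts, so genes high in mural cells passed the filter more easily. Acta2 had 1495 UMIs in mural cells and 1 in fibroblasts. Rgs4 and Higd1b, known from pericytes and smooth muscle, were at 718 and 671 CPM in mural cells and at 0 in the fibroblasts, at least 8.45-fold and 7.89-fold higher, and Mustn1 at 1728 CPM was at least 20.3-fold higher. In turn Dcn, Col1a1, Lum and Pdgfra had no UMI in any mural cell, where 3 UMIs would be 23.7 CPM. Gsn was at 537 CPM in mural cells, 66.2-fold lower (51.8 to 85.8). All 7 fibrillar collagen genes tested were lower in mural cells.

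Endothelial transcripts accompanied many of the mural cells. The endothelial list summed to 4711 CPM in mural cells and 1077 in HFD fibroblasts, or 179 in the latter without the 2 atypical cells, and 11 of 25 mural cells had at least 3 of 6 endothelial genes. Fabp4, a fatty acid carrier of heart capillary endothelium, was in 19 mural cells at 2352 CPM, against 19232 in HFD endothelial cells and 1632.5 in near-empty barcodes. The 11 cells with endothelial genes had a median of 7260 UMIs, with Acta2 at 7262 CPM and Rgs5 at 4016. The 14 others had a median of 4119.5 UMIs, with Acta2 at 17884 CPM, Rgs5 at 4420 and Fabp4 at 1794. In the 9 cells with no endothelial gene Acta2 was at 18870 CPM, Rgs5 at 4216 and Fabp4 at 234. Summed Acta2 was thus higher, and Rgs5 at a similar level, in the mural cells without endothelial genes. Per cell the ranges of Acta2 overlapped: 0 to 299 UMIs per 10000 in these 9 (median 179) and 21.1 to 123 in the 11 (median 75.5). The 9 include the 3 cells with Kcnj8, 2 of which had no Acta2. The part of captured endothelial fragments or joint capture in the other 11 was not tested, and a doublet score removed none of the mural cells.

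The single WD barcode that met the mural rule went against its label. It had 15443 UMIs but 1 UMI each of Rgs5, Kcnj8 and Pdgfrb, 0 of Acta2, Tagln and Myh11, 24 of Ptprc and all 6 leukocyte genes. The CD library had no mural cell by the rule. No expression of mural cells was therefore compared between diets.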

How the data were processed

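The deposited matrices hold raw counts of UMIs per gene and barcode, which the authors made per the file headers with alignment software of version 3.0.1 (CD, HFD) and 7.2.0 (WD). GRCm38 and Seurat are named in the submitters' processing notes, and no source used here says whether intronic reads were counted. The labels state that the sort excluded doublets, and a doublet score (0.8% per 1000 cells) served only as an alternative. Counts of the 30406 genes shared by the 3 files were summed per class with Python 3.11.15, NumPy 2.4.6, SciPy 1.17.1 and pandas 2.3.3. Shares have Clopper-Pearson, CPM exact Poisson and ratios exact conditional intervals, checked on simulated counts. A gene needed 20 UMIs over both sides, and a side at 0 was set to 3 counts. Named genes are list members at least 2-fold apart with an interval excluding 1, and the 10 highest and 10 lowest ratios among genes with 50 UMIs found in 20% of cells; others are named for their level or role. The members and lists were chosen with earlier results of these data known. Intron lengths came from GENCODE vM21. Leaving out fibroblasts without Dcn or Gsn, and recomputing summed marker lists without atypical cells, were added after seeing the data.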

Additional observations from a re-analysis of the deposited data

How the results depend on the processing

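No paired analysis was possible because each diet has 1 library. Of 150 alternative values for member counts and counts of genes, 113 stayed near the main one. HFD mural cells numbered 42 with at least 2 rule genes, 4 with at least 4, 3 at a mitochondrial limit of 5%, 14 without cells with 3 endothelial genes and 5 after thinning to 1000 UMIs. The WD mural barcode was lost (0) with at least 4 rule genes, at the 5% limit, without cells with leukocyte genes and after thinning. WD fibroblasts numbered 56 at C1q under 1% and 35 at the 5% limit. At a minimum of 5 UMIs, HFD against CD gave 881 genes higher and 439 lower, WD against CD 1713 lower, WD against HFD 2074 lower, and mural cells against fibroblasts 704 higher and 1003 lower. At 50 UMIs the counts were 20 and 30, 1053 and 397, 347 lower for WD against HFD, and 132 and 62. Thinning left fewer genes to test and gave 28 and 51, 133 and 168, 123 and 66, and 70 and 37. In WD against CD the lower genes were then more numerous than the higher ones. With the median ratio set to 1, 1479 genes were lower in WD than in CD. Mural cells against fibroblasts gave 35 and 75 with at least 4 rule genes and 189 and 128 without cells with endothelial genes. Among named genes 15 values changed direction. In HFD against CD, Tm4sf1 was -0.30 with at least 4 rule genes, -0.43 without cells with endothelial genes and -0.33 without the 2 atypical cells, Clu was -0.0183 without cells with endothelial genes, and Gas6 -0.30 after thinning. Without cells with leukocyte genes, H2-Aa was -0.21 and Cd74 -0.66 in WD against CD, and Cd74 -0.76 in WD against HFD. Thinning turned Efhd1 (1.18), Fabp5 (-0.40), Mef2c (-0.14) and Plin3 (0.40) in WD against CD. In mural cells against fibroblasts, Igfbp5 was -0.43 and Fabp5 2.48 with at least 4 rule genes, and Fabp5 0.28 without the 2 atypical cells. Except where cells left out or fewer genes show it, the cause was not tested. Depth limits HFD most: 12 fibroblasts held 35284 UMIs, so a gene at 0 may reach 85.0 CPM.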
